A study of Homo sapiens with 8 samples.

Results

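The genes described here encode the proteins of the mitochondrial ribosome, and were measured in HEK293 cells with and without a knock-out of TIP60. Members were the protein-coding genes whose RefSeq symbol begins with MRPL or MRPS followed by digits. All 77 of them, 49 MRPL and 28 MRPS genes, were present among the 27936 genes with a gene ID in the count tables. HEK293 is a cell line established from kidney tissue of a human embryo, and TIP60, encoded by KAT5, is a lysine acetyltransferase of a chromatin complex that acts on histones. Of 8 RNA-seq libraries, 4 were labelled TIP60 KO with genotype HEKg1/C9 and 4 control with genotype HEKg1, and each arm held 2 libraries of sgRNA1 and 2 of sgRNA2. The labels do not explain the part of the KO genotype that the controls lack, nor do they say what the guides of the control cells target. All cells had 2 mM GlutaMAX in the medium and received doxycycline at 1 µg/ml for 3 days, which induced the guide RNAs. No label says whether the replicates were separate cultures or whether a line was 1 clone, so p-values measure only the spread between these libraries.

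The mitochondrial ribosome translates the few mRNAs of the mitochondrial genome, all of which encode core subunits of the respiratory chain and ATP synthase. Its RNA comes from the mitochondrial genome, whereas its proteins are made in the cytosol from nuclear genes and imported. MRPL genes were named for the large subunit, which holds the peptidyl transferase centre, and MRPS genes for the small subunit, which binds the mRNA and decodes it. Some of the proteins descend from the bacterial ribosome and the others occur only in mitochondria. In structures of the human particle, the products of MRPS18A and MRPS30 sit in the large subunit despite their names.

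Because these nuclear genes are spread over many chromosomes, their promoters are shown first, as the sequence in which they can be compared. The stretches below are RefSeq sequence of GRCh38.p14 from the 100 bases before the start of the member, 5′ to 3′ on the gene's own strand, cut to the part outside every exon of GENCODE v29. Capitals mark matches to 1 of 5 short motifs, searched on both strands: CCGGAAG for ETS factors such as GABPA, AAGATGGC for YY1, GCGCATGCG for NRF1, the E-box CACGTG and TATAAA. MRPS34, MRPL3 and MRPL20, which fell in the KO, MRPL58 and MRPS31, which rose, and MRPS18A, which was not called, all held the ETS letters.
MRPS34, chr16:1773156-1773206, minus strand: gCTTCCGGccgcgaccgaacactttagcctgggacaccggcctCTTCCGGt
MRPL3, chr3:131502984-131503071, minus strand: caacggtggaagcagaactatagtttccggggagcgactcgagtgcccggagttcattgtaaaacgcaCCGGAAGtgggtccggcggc
MRPL20, chr1:1407314-1407393, minus strand: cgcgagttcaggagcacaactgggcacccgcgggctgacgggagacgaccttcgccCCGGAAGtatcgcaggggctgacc
MRPL58, chr17:75012570-75012669, plus strand: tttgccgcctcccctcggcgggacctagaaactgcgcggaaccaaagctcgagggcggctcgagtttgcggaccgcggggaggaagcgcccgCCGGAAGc
MRPS31, chr13:40771191-40771290, minus strand: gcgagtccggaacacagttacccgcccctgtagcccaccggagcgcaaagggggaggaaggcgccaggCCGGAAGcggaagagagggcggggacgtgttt
MRPS18A, chr6:43687792-43687891, minus strand: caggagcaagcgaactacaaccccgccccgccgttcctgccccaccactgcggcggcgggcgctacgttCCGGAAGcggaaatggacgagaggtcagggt
MRPL17 and MRPL22, both of which fell, held the NRF1 letters, and in MRPL17 matches on the 2 strands overlap. MRPS18C, which was not called, held these letters in the wider window described below and is not shown.
MRPL17, chr11:6683402-6683440, minus strand: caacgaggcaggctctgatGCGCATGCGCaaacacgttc
MRPL22, chr5:154940973-154941069, plus strand: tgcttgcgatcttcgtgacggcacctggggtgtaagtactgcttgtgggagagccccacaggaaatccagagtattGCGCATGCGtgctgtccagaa
MRPL52, which fell, held the YY1 letters upstream of its start, and MRPL12 and MRPS25, the members with the largest falls, held none of the 5 motifs in the stretch shown.
MRPL52, chr14:22829821-22829878, plus strand: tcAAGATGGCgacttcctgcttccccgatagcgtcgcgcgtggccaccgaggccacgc
MRPL12, chr17:81703301-81703356, plus strand: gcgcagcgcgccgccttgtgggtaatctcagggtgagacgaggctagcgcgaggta
MRPS25, chr3:15065336-15065415, minus strand: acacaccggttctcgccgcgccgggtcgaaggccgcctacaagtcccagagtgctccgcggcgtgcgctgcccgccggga

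Over windows of 300 bases, from 250 before to 50 after the start, 69 members had a RefSeq window, and the entries of MRPS28, MRPL21, MRPL23, MRPL2, MRPL15, MRPL10, MRPL35 and MRPL13 are named only. The ETS letters stood in 29 of the 69 windows (42.0%), in 18.4% of the windows of other tested genes and in 10.7% of all 27305 windows. The YY1 letters stood in 20 member windows (29%), in 5.05% of windows of other tested genes and in 3.03% of all windows. Of 21 YY1 matches in members, 15 lay after the start, whereas 6 of 39 ETS matches did. The NRF1 letters were in 3 member windows (4.35%), in 3.68% of windows of other tested genes and in 2.10% of all windows. The E-box was in 6 (8.70%), against 9.99% of other tested and 7.44% of all windows, and TATAAA in 2 (2.90%), against 5.94% and 12.0%. Among the 29 members with the ETS letters, 15 were called lower and 5 higher (median log2 fold change -0.14). As background, 31.2% of all tested genes were called lower and 31.8% higher, and of all tested members 58.7% and 12%. The 38 tested members with a window and without those letters included 24 that fell and 3 that rose (median -0.24). Of 18 tested members with the YY1 letters, 12 fell and 2 rose (median -0.20), and of 49 without them 27 fell and 6 rose (median -0.15). Of the 3 with the NRF1 letters, MRPL17 and MRPL22 fell and MRPS18C was not called (median -0.24). Of 64 without the NRF1 letters 37 fell and 8 rose (median -0.15). A match is a description of the letters and was not tested against the expression change.

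Library totals ran from 13325415 to 18841774 counts in the KO arm and from 3723992 to 14601552 in the control arm, where the shallowest, control sgRNA1 replicate 2, stands apart. KAT5 was at 18.0 to 20.2 CPM (counts scaled to the same library total) in the 4 KO libraries and at 44.5 to 49.0 in the controls. Its mean of 18.8 ± 0.965 CPM (SD, n = 4) was 40.1% of the control mean of 46.8 ± 2.12, so its mRNA was lower in every KO library and still present. Of 6 genes listed as markers of HEK293 and the kidney lineage, NEFM, VIM, KRT8, KRT18 and CDH2 had control means of 55.2 CPM or more. Of these, NEFM (log2 fold change 0.57), KRT8 (0.36) and CDH2 (0.29) were called higher in the KO, VIM (-0.30) lower and KRT18 was not called. Of 10 markers of leukocytes, endothelium, fibroblasts, hepatocytes and epithelium, 6 had too few counts to be tested, and the sum of all 10 was 36.4 to 45.0 CPM in the KO and 37.7 to 44.2 in the control libraries. Among the 4 tested, CD68 was called higher (0.61, means of 6.79 and 4.22 CPM in KO and control) and EPCAM lower (-0.39, means of 14.1 and 18.7 CPM), and COL1A1 and COL1A2 were not called. PAX2, a renal progenitor marker and the remaining gene of the 6 listed for HEK293 and the kidney lineage, was low. Its means were 0.902 CPM in the KO and 0.706 CPM in the controls, and it was not called. The part of these markers in the members' change was not tested.

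Most members were lower in the KO, by small amounts. Of the 75 that passed the filter on low counts, 44 were called lower and 9 higher, where called means an adjusted p under 0.05 over all 14455 genes tested, and 22 were not called. Over all tested genes 31.2% were called lower and 31.8% higher, so the members' 58.7% lower stands above the background and their 12% higher below it. The median log2 fold change (KO over control) was -0.16 over the members and 0.01 over all tested genes. Members called lower kept 59.6 to 92.0% of their control level, and members called higher stood at 110 to 139% of it. No member changed 2-fold, whereas 9.53% of all tested genes did, and 2 members fell and 0 rose by 1.5-fold or more, against 7.49% and 15.2% of all tested genes. The 4 KO values all lay below the 4 control values for 32 members and above them for 8, against 25.6% and 27.3% of all tested genes. In bulk RNA, less RNA per cell and fewer cells of a kind cannot be told apart.

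**Figure D1:**
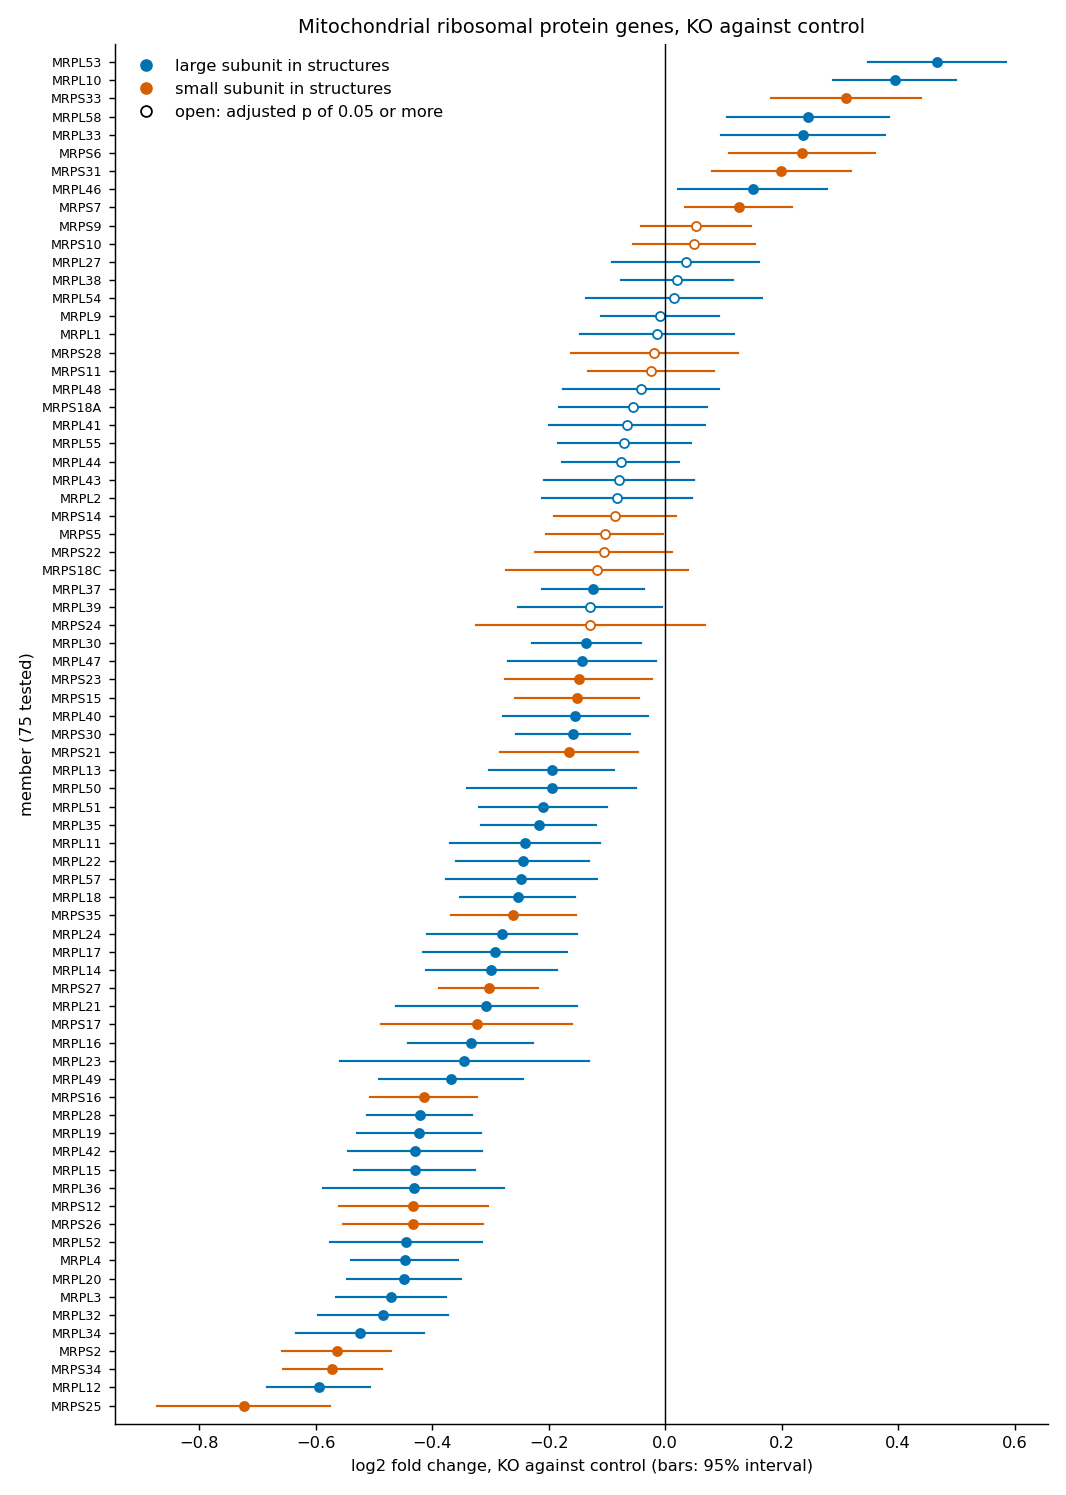
Log2 fold change of KO over control (x axis) for the 75 tested members, ordered by value, with 95% intervals as bars, blue for the large and orange for the small subunit in structures; filled points were called. The 44 filled points left of 0 reach -0.72 at MRPS25, and the 9 on the right reach 0.47 at MRPL53.

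The members' summed CPM was lower in the KO, a sum to which abundant members give the most. Their summed level was 4614, 4730, 4623 and 4773 CPM in the KO libraries and 5668, 5244, 5422 and 5581 CPM in the controls. All KO sums lay below all control sums, with means of 4685 ± 79.0 and 5479 ± 187 CPM (SD, n = 4). MRPL genes summed to 2865 to 2981 CPM in the KO and 3231 to 3579 in the controls, and MRPS genes to 1733 to 1792 and 2013 to 2089. The ratio of MRPL to MRPS sums was 1.63 to 1.67 in the KO and 1.60 to 1.71 in the control libraries, ranges that overlap. TPM are counts per gene length scaled to the same total, without the scaling factors applied to CPM. They are given as medians over genes, so the distance between arms cannot be set beside that of the summed CPM. The median over MRPL genes was 95.7 to 99.4 TPM in the KO and 99.8 to 108.5 in the control libraries. The median over MRPS genes was 111.8 to 116.3 TPM in the KO and 112.3 to 123.8 in the controls, so these arms overlapped.

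**Figure D2:**
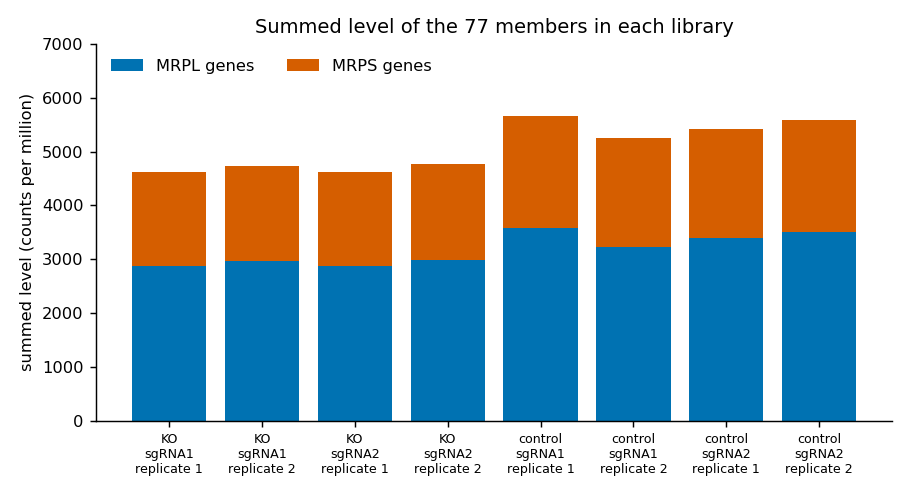
Summed CPM of the 77 members in each of the 8 libraries, split into MRPL (blue) and MRPS (orange) genes. The 4 KO bars end between 4614 and 4773 CPM, below the 4 control bars.

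Since abundant genes were called lower more often across the whole table, members were set beside other genes of like control level. Among genes at 16 to 64 CPM in control cells, 19 of 44 members were lower and 8 higher, against 35.7% and 31.0% of the 4632 other genes. In the next class, from 64 CPM to 4 times that level, 25 of 30 members were lower and 1 higher, against 46.4% and 24.3% of 3542 others. The single member at 4 to 16 CPM, MRPS24, was not called. With other genes weighted to the members' classes, 39.9% were lower and 28.4% higher, with a median of -0.05. The difference from the members was largest for the most abundant: all 9 members from 128 CPM to 2 times that level were lower (MRPL3, MRPL4, MRPL12, MRPL19, MRPL37, MRPL42, MRPS25, MRPS27 and MRPS34), against 49.8% of others in that class. Of these, MRPL37 (log2 fold change -0.12) was called with neither guide alone. Its call was lost in 3 of 16 alternatives: library totals alone, and leaving out control sgRNA1 replicate 1 or control sgRNA2 replicate 2. At 32 to 64 CPM 15 of 35 members were lower, against 38.6% of others. Control levels enter both the class and the fold change, and with classes set by the mean of all 8 libraries, an alternative chosen after seeing the data, the weighted shares were 38.9% and 29.6%.

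**Figure D3:**
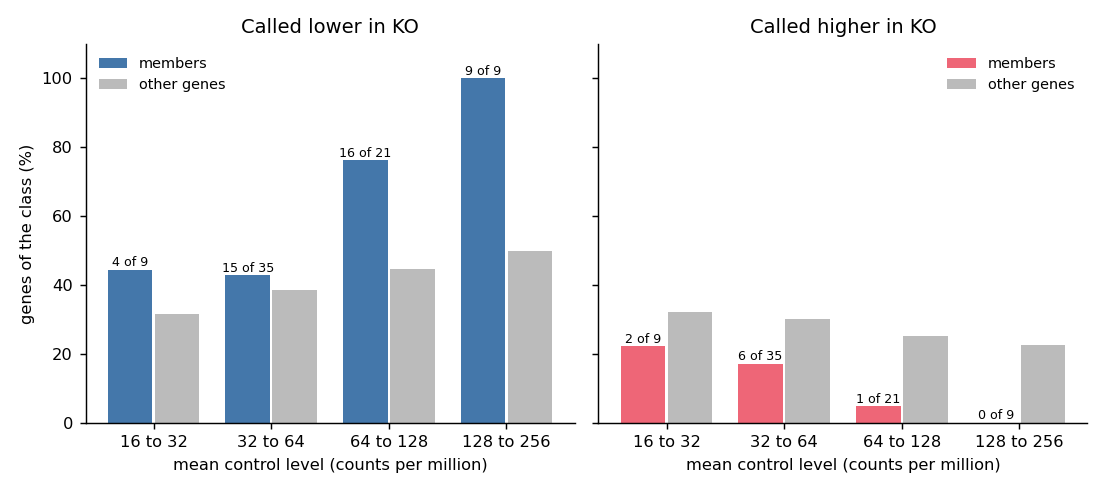
Share of genes called lower (left) and higher (right) in the KO, in classes of mean control CPM a factor of 2 wide, for members (coloured, with counts) and other genes (grey). The share of members called lower goes from 4 of 9 at 16 to 32 CPM to 9 of 9 in the class that starts at 128 CPM.

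In each subunit more members fell than rose, where 31.2% of all tested genes were called lower and 31.8% higher. Among 48 tested MRPL genes, 31 fell and 5 rose, and their median log2 fold change was -0.21. Among 27 tested MRPS genes, 13 fell and 4 rose, and the median was -0.13. With MRPS18A and MRPS30 counted where they sit in structures, the large subunit had 32 lower and 5 higher of 50 (median -0.20) and the small subunit 12 lower and 4 higher of 25 (median -0.13). The 5 mitoribosomal proteins with other symbols, of which 4 were lower and 0 higher, are in neither count, so these are not whole subunits. The medians of MRPS and MRPL genes differed by 0.085 on the log2 scale, and the ranges overlapped almost wholly, from -0.72 to 0.31 for MRPS and from -0.59 to 0.47 for MRPL genes. No test of this difference was made, because genes are not replicates.

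The proteins with bacterial homologues were counted apart from those classed as mitochondria-specific, following the names used in structures. As background, 31.2% of all tested genes were called lower and 31.8% higher, and of all tested members 58.7% and 12%. Other genes weighted to the members' classes of control level had 39.9% lower and 28.4% higher. No test between the classes of proteins was made. Of 45 genes with a bacterial homologue 29 were lower and 4 higher (median -0.24), and of 30 tested mitochondria-specific genes 15 were lower and 5 higher (median -0.13). In the large subunit 23 of 29 genes with a bacterial homologue were lower and 2 higher (median -0.29), beside 9 lower and 3 higher of 21 mitochondria-specific genes (median -0.08). The small subunit had the opposite order, with 6 lower of 16 homologues (median -0.11) and 6 lower of 9 mitochondria-specific genes (median -0.26). The proteins assigned here to the exit tunnel, where the new chain leaves the large subunit, were called lower in all 5 cases tested: MRPL17, MRPL22, MRPL23, MRPL24 and MRPL47 had log2 fold changes of -0.29, -0.24, -0.34, -0.28 and -0.14. The arms overlapped in all of these but MRPL22, and MRPL47 (-0.26 with sgRNA1 and -0.04 with sgRNA2) lost its call in 11 of 16 alternatives, DESeq2 and leaving out KO sgRNA1 replicate 1 or 2, KO sgRNA2 replicate 1, control sgRNA1 replicate 1 or control sgRNA2 replicate 2 among them. The central protuberance is the ridge of the large subunit that faces the small one. Of the 5 members assigned to it here, MRPL46 and MRPL58 were higher, MRPL40 was lower, and MRPL38 and MRPL48 were not called. Most members were assigned to no place, so proteins of a place may be missing from these counts. The call of MRPL40 (-0.15) was lost in 7 of 16 alternatives, among them DESeq2 and leaving out KO sgRNA1 replicate 1, KO sgRNA2 replicate 1, control sgRNA1 replicate 1 or control sgRNA2 replicate 2, and its arms overlapped.

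The stalk of the large subunit, which recruits the translation factors, held members that moved in opposite directions. MRPL12 (gene ID 6182, chromosome 17, 81703367 to 81707517) encodes the stalk protein that is present in several copies and has also been described as a partner of the mitochondrial RNA polymerase. It was at 132, 133, 125 and 127 CPM in the KO libraries and at 204, 186, 195 and 192 CPM in the controls. The KO values lay far below the control values, at 66.6% of the control mean (log2 fold change -0.59, 95% interval -0.68 to -0.51, adjusted p = 2.07e-10). MRPL12 shares 68.2% of its exonic bases with a readthrough entry on the same strand, AC139530.2, so its counts are uncertain to that degree. MRPL10 (gene ID 124995, chromosome 17, 47823272 to 47831541), the protein that anchors the MRPL12 copies, was at 73.7, 71.3, 74.0 and 69.7 CPM in the KO and at 56.0, 49.8, 57.6 and 53.8 in the controls. Every KO library was above every control, and the log2 fold change was 0.39 (SE 0.051, adjusted p = 1.07e-06). MRPL11, at the base of the stalk, was at 42.5, 39.6, 42.7 and 44.3 CPM in the KO and at 52.4, 41.2, 53.5 and 48.7 in the controls. It was called lower (log2 fold change -0.24, adjusted p = 0.00198), although control sgRNA1 replicate 2, the shallowest library, lay within the KO range. With all libraries thinned to the depth of the smallest, it was at -0.06 (adjusted p = 0.58) and not called.

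MRPS25 (gene ID 64432, chromosome 3, 15042251 to 15065315), a mitochondria-specific protein of the small subunit, had the largest fall. Its levels were 107, 111, 104 and 108 CPM in the KO libraries and 148, 216, 183 and 174 CPM in the controls. The KO libraries were close together and the controls spread, with means of 107 ± 2.57 and 180 ± 28.0 CPM (SD, n = 4) and a log2 fold change of -0.72 (95% interval -0.87 to -0.57, adjusted p = 2.36e-08). NR2C2, on the opposite strand, shares 22.2% of the exonic bases of MRPS25 and was lower too, at -0.20.

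MRPS34 (gene ID 65993, chromosome 16, 1771895 to 1773134), another mitochondria-specific small-subunit protein, was at 126, 131, 133 and 129 CPM in the KO and at 191, 195, 195 and 192 in the controls. The 2 sets of values were tight and far apart (log2 fold change -0.57, adjusted p = 2.04e-10). MRPS2 (gene ID 51116, chromosome 9, 135499965 to 135504673), a homologue of a bacterial small-subunit protein, was at 66.0, 66.8, 68.7 and 67.5 CPM in the KO and at 98.7, 98.3, 104 and 97.0 in the controls. It kept 67.7% of its control level (log2 fold change -0.56, adjusted p = 9.98e-10).

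MRPL34 and MRPL32, small proteins of the large subunit with bacterial homologues, completed the 6 largest falls. MRPL34 (gene ID 64981, chromosome 19, 17292573 to 17306843) was at 33.9, 35.1, 38.6 and 36.1 CPM in the KO and at 50.3, 48.0, 54.0 and 53.7 in the controls, a log2 fold change of -0.52. MRPL32 (gene ID 64983, chromosome 7, 42932376 to 42937857), whose precursor is matured by a mitochondrial protease, was at 40.8, 42.5, 43.1 and 39.1 CPM in the KO and at 58.8, 53.6, 57.6 and 59.6 in the controls, a log2 fold change of -0.48. In neither gene did the arms overlap, and the adjusted p-values were 3.18e-08 and 1.29e-07.

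**Figure D4:**
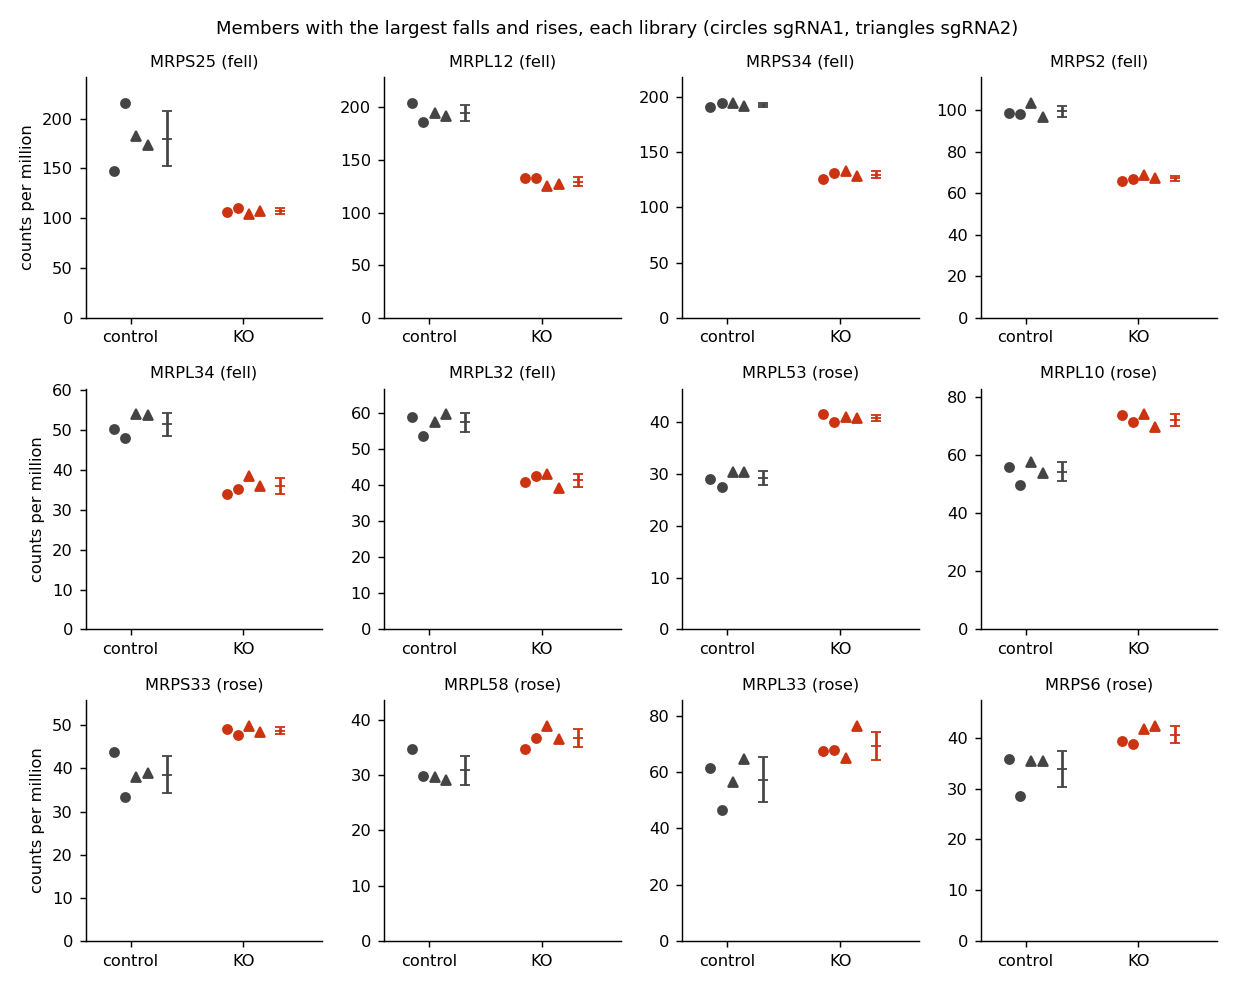
CPM (y axis, from 0) of the 6 members with the largest falls and the 6 with the largest rises in each control (grey) and KO (red) library, circles for sgRNA1 and triangles for sgRNA2, with mean and SD beside them. In MRPS34 the controls sit at 191 to 195 CPM and the KO libraries at 126 to 133.

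Rises were fewer and mostly smaller. MRPL53 (gene ID 116540, chromosome 2, 74471982 to 74472680), a mitochondria-specific large-subunit protein, was at 41.5, 40.1, 40.9 and 40.9 CPM in the KO and at 29.1, 27.5, 30.3 and 30.4 in the controls. All KO values lay above all controls (log2 fold change 0.47, 95% interval 0.35 to 0.59, adjusted p = 4.71e-07). CCDC142, on the same strand, shares 45.2% of the exonic bases of MRPL53 and was called lower, at -0.54, so the neighbours moved in opposite directions.

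MRPS33 (gene ID 51650, chromosome 7, 141002610 to 141014952), a small-subunit protein without a bacterial homologue, was at 49.2, 47.8, 49.8 and 48.4 CPM in the KO and at 43.9, 33.4, 38.0 and 38.9 in the controls. Its log2 fold change was 0.31 (adjusted p = 0.000192), with no overlap. MRPL33 (gene ID 9553, chromosome 2, 27771719 to 27779733), one of the small homologues in the large subunit, was at 67.6, 67.7, 64.8 and 76.3 CPM in the KO and at 61.2, 46.6, 56.5 and 64.7 in the controls. The arms touch, at 64.8 and 64.7 CPM, and the log2 fold change was 0.24 (adjusted p = 0.00441). BABAM2 shares 21.1% of the exonic bases of MRPL33 on the same strand and was called lower, at -0.37.

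MRPL58 (gene ID 3396, chromosome 17, 75012670 to 75021261) is a peptidyl-tRNA hydrolase built into the large subunit, where it can release chains from stalled ribosomes. It was at 34.7, 36.7, 38.9 and 36.5 CPM in the KO and at 34.7, 29.9, 29.7 and 29.1 in the controls. The highest control, sgRNA1 replicate 1, nearly reached the lowest KO library, and the log2 fold change was 0.24 (adjusted p = 0.00332). MRPS6 (gene ID 64968, chromosome 21, 34073578 to 34143030), a small-subunit protein with a bacterial homologue, was at 39.4, 38.9, 41.7 and 42.3 CPM in the KO and at 35.9, 28.6, 35.5 and 35.3 in the controls. It rose by 0.23 on the log2 scale (adjusted p = 0.00203).

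Among members fixed for their role, MRPS12, in the decoding centre, fell: it was at 25.4, 25.9, 24.7 and 26.4 CPM in the KO and at 35.4, 32.9, 35.5 and 33.2 in the controls (log2 fold change -0.43, adjusted p = 3.78e-06). SARS2, the mitochondrial seryl-tRNA synthetase gene that overlaps MRPS12 on the opposite strand over 16.3% of its exonic bases, rose by 0.26. MRPS7, an early-binding protein of the small-subunit head, was at 115 to 122 CPM in the KO and at 106 to 112 in the controls. This rise of 0.13 (adjusted p = 0.0165) was lost without KO sgRNA1 replicate 1 (adjusted p = 0.0564), KO sgRNA2 replicate 2 (0.0656) or control sgRNA2 replicate 1 (0.0773). MRPL46, a further member called higher, at 0.15 (adjusted p = 0.0386), had overlapping arms and was lost in 9 of 16 alternatives, DESeq2 and leaving out KO sgRNA1 replicate 2, either KO sgRNA2 library, control sgRNA1 replicate 2 or control sgRNA2 replicate 1 among them.

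MRPL27, beside the peptidyl transferase centre, was at 56.0 to 63.2 CPM in the KO and 51.5 to 61.4 in the controls, and its log2 fold change of 0.04 had an interval of -0.09 to 0.16. MRPL44, which carries a ribonuclease III fold, had KO values of 52.9 to 54.2 CPM just below the control values of 54.4 to 58.2, but did not pass the test (log2 fold change -0.08, adjusted p = 0.174). Intervals of this width leave room for changes of the size seen in members that were called. The 22 members not called had log2 fold changes from -0.13 to 0.05.

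The 3 MRPS18 genes encode related proteins that occupy different places in the ribosome, of which MRPS18C alone was classed here with the bacterial homologues. MRPS18A, in the large subunit, was at 36.6 to 42.3 CPM in the KO and at 37.2 to 41.7 in the controls (log2 fold change -0.06, adjusted p = 0.442). MRPS18C, in the small subunit, was at 18.6 to 20.7 CPM in the KO and at 19.7 to 21.8 in the controls (log2 fold change -0.12, adjusted p = 0.179), so neither was called. MRPS18B had 7 counts over all 8 libraries and was not tested. RSPH9 shares 47.0% of the exonic bases of MRPS18A and ABRAXAS1 40.2% of those of MRPS18C, both on the opposite strand. MRPS30, the other large-subunit protein with a small-subunit name, was at 74.5 to 82.5 CPM in the KO and at 85.2 to 89.2 in the controls, a log2 fold change of -0.16 (adjusted p = 0.00622).

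MRPL45, which ties the exit of the tunnel to the inner membrane, was the other member not tested, with 10 counts over the 8 libraries. Genes around both members were nearly empty of counts as well. Within 500000 bases on each side, 12 of 16 protein-coding neighbours of MRPL45 and 22 of 30 of MRPS18B had under 15 counts in total and 0 had 1000 or more, whereas 25.3% of all protein-coding genes had under 15 and 51.4% had 1000 or more. The cause of these low counts was not tested, and they say nothing of whether the 2 genes are expressed.

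Per length, levels of tested members in control cells spanned 16.2 to 530 TPM, a level divided by gene length and scaled to the same total in every library; the median was 112 TPM. MRPL12 (530 ± 25.3 TPM, SD, n = 4), MRPS34 (522 ± 10.2) and MRPL51 (360 ± 24.6) were the most abundant, and the levels of MRPL12 and MRPS34 did not differ beyond their spread. In the KO these 3 were at 369, 367 and 330 TPM, so that MRPL51, with a smaller fall of -0.21 on the log2 scale in CPM (adjusted p = 0.0017), came closer to the other two. NCAPD2 shares 31.3% of the exonic bases of MRPL51 on the opposite strand and was also lower. The least abundant were MRPL23 (16.2 TPM), MRPS31 (37.6 TPM) and MRPL57 (38.1 TPM). MRPL23 and MRPL57 were called lower, at -0.34 and -0.25 on the log2 scale. MRPS31 was called higher, at 0.20 (adjusted p = 0.00463), and so was its pseudogene MRPS31P5, at 0.29. In all, 41 members have a pseudogene in RefSeq, and 3 such pseudogenes had entries in the tables.

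The 2 guides gave like values for the members. With sgRNA1 34 members were lower and 4 higher, against 23.3% and 24.3% of all tested genes, and with sgRNA2 34 were lower and 5 higher, against 25.4% and 25.7%. KO libraries of each guide number were compared with the 2 controls of the same number, so the comparisons share no library. Both comparisons, however, use the same spread, estimated from all libraries. Calls coincided for 29 members lower and 3 higher with both guides, 0 were called in opposite directions, and 68 of 75 had the same sign. These counts were not made over all tested genes, so no background share stands beside them. As a description across the 75 members, the fold changes of the 2 guides had a Pearson r of 0.938, beside 0.868 over all 14455 genes. MRPL58 had 0.10 with sgRNA1 and 0.36 with sgRNA2, and was called with sgRNA2 and not with sgRNA1. The difference between the guides was called by edgeR for 0 members and for 0.0% of all genes. At an unadjusted p under 0.05 it was seen in 0 members and in 638 genes (4.41%), and no other tool was run on it.

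**Figure D5:**
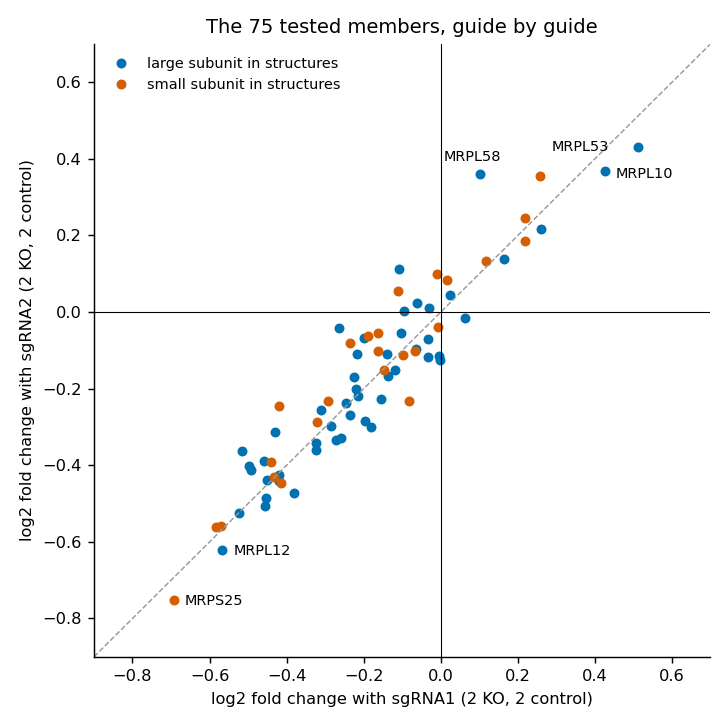
Log2 fold change with sgRNA1 (x axis) and with sgRNA2 (y axis) for the 75 tested members, blue for the large and orange for the small subunit in structures, with the line of equal values dashed. Points lie along the line from MRPS25 at -0.69 and -0.75 to MRPL53 at 0.51 and 0.43.

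Several members start head to head with another gene, their 5′ ends within 1000 bases on opposite strands in GENCODE v29. In 15 such pairs with both genes tested, both were lower in 4 and higher in 1, and they were called in opposite directions in 1. Of 551 pairs without a member, both were lower in 69, higher in 53 and opposite in 112. MRPS34 and EME2, an endonuclease subunit gene whose start lies 52 bases away, both fell, with log2 fold changes of -0.57 and -1.26. MRPL36 and NDUFS6, a subunit of respiratory complex I, both fell, with -0.43 and -0.29. MRPL10 and LRRC46 rose by 0.39 and 1.78, and MRPL52 was lower at -0.45 while SLC7A7, an amino acid transporter gene, rose by 1.35. MRPL46 and MRPS11 form a pair of members, at 0.15 and -0.02, of which MRPL46 alone was called.

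Other genes of mitochondrial translation were examined as lists fixed for this purpose, and their counts stand beside 31.2% lower and 31.8% higher over all tested genes. The 5 mitoribosomal proteins with other symbols had 4 lower and 0 higher: AURKAIP1 at -0.39, PTCD3 at -0.34, GADD45GIP1 at -0.39 and CHCHD1 at -0.32, while DAP3 was not called at -0.10. Of 27 tested factors that assemble the ribosome or modify its RNA, 12 were lower and 5 higher (median -0.12). The helicase DHX30 (-0.34), the pseudouridine synthase RPUSD4 (-0.49) and the acyl carrier protein NDUFAB1 (-0.39) fell, and MPV17L2, a membrane protein associated with assembly, rose by 0.61. Of 15 translation factors 6 were lower and 2 higher (median -0.06), among them the elongation factor TUFM (-0.35), its exchange factor TSFM (-0.41) and the release factor relative MTRFR (-0.34), all lower, and TACO1, an activator of MT-CO1 translation, higher by 0.31.

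Aminoacyl-tRNA synthesis genes were split, with the same shares over all tested genes as background (31.2% lower, 31.8% higher): 9 lower and 5 higher of 20 tested (median -0.09). AARS2, CARS2, IARS2 and EARS2, which charge mitochondrial tRNAs, had log2 fold changes of -0.53, -0.48, -0.43 and -0.39. Of 9 genes of mitochondrial DNA transcription and replication 4 were lower and 1 higher (median -0.25): POLRMT, the RNA polymerase, had -0.76, the helicase TWNK -0.46, TFB2M -0.38 and TFAM -0.25. Among 10 nuclear regulators of mitochondrial genes 5 were lower and 2 higher (median -0.11). The coactivator PPARGC1B fell from 48.5 to 23.5 CPM (-1.04), the nuclear receptor ESRRA had -0.58 and YY1 -0.32. MYC rose from 253 to 420 CPM, by 0.74. The regulators of the ETS and NRF1 letters were named after their values were seen: GABPA was called lower at -0.14, its partner subunit GABPB2 higher at 0.67, and GABPB1 (-0.09) and NRF1 (0.03, adjusted p = 0.728) were not called.

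The RNAs that this ribosome contains and reads varied more between control libraries than between arms. The 13 mitochondrially encoded mRNAs summed to 19891, 20458, 21303 and 20418 CPM in the KO libraries and to 13217, 29320, 26496 and 24032 CPM in the controls. Control sgRNA1 replicate 1 thus lay below every KO library and the other 3 controls above every one. By edgeR 0 of the 13 mRNAs and 0 of the 2 rRNAs were called, none had an unadjusted p under 0.05, and DESeq2 also called 0. This depended on the filter and on single libraries. With no filter on low counts, edgeR called 10 mRNAs lower, 1 higher and both rRNAs higher, among them MT-CO1 at -0.30 and MT-RNR2 at 0.22. Without control sgRNA1 replicate 1, 11 mRNAs were lower, of which MT-CO1 (-0.49), MT-ND4L (-0.40), MT-ND4 (-0.41) and MT-CO3 (-0.39) are named. Without control sgRNA1 replicate 2, 1 mRNA, MT-RNR1 (0.34) and MT-RNR2 (0.46) were called higher, and without KO sgRNA2 replicate 2, 1 mRNA was lower and MT-RNR1 higher (0.27). The libraries were selected for poly(A), which mitochondrial RNAs carry to different degrees.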

How the data were processed

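RNA from 8 HEK293 samples was measured as stranded TruSeq mRNA libraries read as 80 bp paired ends. The deposited tables hold the authors' raw counts per gene with gene lengths, and reads were counted by featureCounts on hg38, per the submitters' processing notes. Which aligner, annotation release and strand setting were used is not given in the sources used here, so reads of overlapping genes may have been assigned to either. Of 28395 entries, 459 without a gene ID (0.0284 to 0.0425% of counts) were left out, and 27744 of 27936 genes matched a symbol in RefSeq (GRCh38.p14).

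Groups were the 4 combinations of arm and guide. Genes were kept by filterByExpr (minimum count 10, total 15), scaled by TMM (factors 0.980 to 1.02) and tested in edgeR 4.0.16 (quasi-likelihood, R 4.3.3) on all 8 libraries with a guide term and 5 residual degrees of freedom. Guides were compared in a model of 4 group means. P-values were Benjamini-Hochberg adjusted over 14455 genes, and the biological coefficient of variation was 0.0473. CPM use TMM scaling and TPM the deposited lengths. The code was tested on simulated data. Precision follows depth, and intervals of fold changes are 95%.

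Members and lists were chosen with earlier results of these data known. Named genes were KAT5 and the 6 largest rises and 6 largest falls with every KO library beyond both controls of the same guide number. The 3 most and 3 least abundant members per length and 13 members fixed for their role were added. So were up to 4 genes per list by p. Members used in counts of places, promoters and pairs, and overlap partners, were named besides. Alternatives were other scaling, filters, DESeq2 1.42.0, thinning to the smallest library, a replicate block and leaving out each library.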

Additional observations from a re-analysis of the deposited data

Results flagged for a closer look

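In 4 of 48 groups of 4 libraries of the 24 tested named members, 1 library lay far from the other 3, with chance giving about 1 in 20 groups. MRPL58 was at 34.7 CPM in control sgRNA1 replicate 1, with the next control at 29.9 CPM. MRPS6 was at 28.6 CPM in control sgRNA1 replicate 2, the shallowest library, with the next control at 35.3 CPM. MRPS31 was at 32.6 CPM in the same library, with the next control at 36.7 CPM. MRPS18C was at 20.7 CPM in KO sgRNA2 replicate 2, with the next KO library at 18.8 CPM. MRPL58, MRPS6 and MRPS31 stayed called without any one library.

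An entry outside the member list also differed between the arms. MRPS9-AS2, a long non-coding RNA gene next to MRPS9, had 5, 8, 6 and 11 counts in the KO libraries and 1, 0, 0 and 0 in the controls, 30 against 1 in all, and was too low to be tested. MRPS9 itself was not called (log2 fold change 0.05, adjusted p = 0.313).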

How the results depend on the processing

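Of the 53 calls among members, 38 (7 higher, 31 lower) held in all 16 alternatives and 0 reversed. Members called lower numbered 33 to 46 and higher 7 to 9, and the median log2 fold change was -0.12 to -0.21. For the whole set of genes this median lay between -0.02 (no filter) and 0.04 (library totals alone), above the members' range. No background share stands beside the counts of calls under the alternatives. Those counts therefore cannot show whether the members' excess of falls over other genes held in each one. Thinning every library to the depth of the smallest lost the most calls, 14, among them MRPL11 (-0.06, adjusted p = 0.58), MRPS7 (0.10) and MRPS30 (-0.15, adjusted p = 0.0745). It gained 1 call, MRPS14. A single random draw was made, and the cause of the lost calls was not tested. Leaving out 1 library gave 38 to 46 lower and 7 to 9 higher, and medians of -0.14 to -0.21. The difference of subunit medians was 0.057 to 0.113. DESeq2 called 8 higher and 40 lower. The replicate block gave 8 higher and 44 lower with a median of -0.16; it lost the call of MRPL46 alone, and gained MT-RNR1 (adjusted p = 0.0207) and MT-RNR2 (adjusted p = 0.0151). Deviations of same-numbered libraries correlated at 0.015 and 0.028, so the numbers were not taken as pairs. Without the 14 members whose exons overlap those of other genes by 20% or more, 7 were higher and 39 lower of 61. Scaling moved the median of all genes by under 0.1.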
